A study of Mus musculus with 21 samples.

Results

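p53, encoded in the mouse by Trp53, and 9 genes that it is known to switch on were followed while mouse embryonic stem cells (ESCs) differentiated in embryoid bodies with or without Rinf. The genes were taken by name: Trp53, Cdkn1a, Mdm2, Trp53inp1, Phlda3, Zmat3, Ccng1, Bbc3, Bax and Sesn1, 10 of the 24458 genes in the deposited table. All 10 reached a mean of at least 1 FPKM (fragments counted over the length of the transcript in kb and over library size, a level corrected for gene length) and were tested together with 12472 genes in all. Rinf, also named Cxxc5, belongs to the genes with a CXXC motif, whose zinc finger is known to recognise CpG without methylation.

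The 12 libraries form 6 groups of 2: Rinf wild type and Rinf knockout cells of mixed 129/C57BL/6 strain at days 0, 3 and 6 of differentiation by the hanging drop method, in which ESCs are left to aggregate and lose pluripotency. Per the series' design text, each genotype was represented by 2 independent ESC lines, so the spread within a group includes differences between lines. The labels name no drug, no DNA-damaging agent and no p53 allele in any group, and the sources used here do not give the deleted part of Rinf. The p-values measure only the spread between these samples. Groups of 2 allow a two-sided exact permutation p of 0.333 at best, so every test below comes from limma fitted over all genes tested, with Benjamini-Hochberg adjustment and a threshold of 0.05. Differences are in log2(FPKM + 1), which understates changes of low genes, and are followed by the SE of the fit. Each mean carries the SD of its 2 libraries.

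p53 is a transcription factor that is made and degraded continuously. Stress signals such as DNA damage slow its degradation, so its activity is set mostly at the protein and not at the mRNA, and its mRNA is abundant in mouse ESCs. Stabilised p53 binds pairs of half-sites in DNA and raises genes that stop the cell cycle, start cell death or feed back on p53 itself, among them Mdm2, whose product marks p53 for degradation.

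Half-site pairs near the start sites of the 10 genes are shown because they are the kind of sequence through which these genes are known to answer to p53. RefSeq promoters of the build GRCm38.p6 (mm10) were matched for 8 of the 10 genes, all but Trp53inp1 and Zmat3. The search took the p53 half-site consensus, which is its own reverse complement and is therefore the same on both strands, in pairs with a spacer of 0 to 13 bases and at most 1 mismatch per pair. It found 9 pairs within 3 kb of a start site, and 6 are printed: the 5 with a spacer of 0 or 1 base, and the sole pair without a mismatch, which has a spacer of 12 bases. Capitals mark bases that match the consensus, lower case marks the mismatch or a spacer base, and each sequence runs 5' to 3' on the strand of its gene.
Cdkn1a, no spacer: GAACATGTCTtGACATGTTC
Cdkn1a, no mismatch: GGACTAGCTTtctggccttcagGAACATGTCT
Mdm2: GGGCAAtTCCGGGCAAGTCC
Ccng1: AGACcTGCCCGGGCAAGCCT
Ccng1, downstream of the start: AcGCAAGCCCGGGCTAGTCT
Bax: AAGCATaTCCcAGGCAAGCTT
Positions are counted from the nearest start site of the gene. The Cdkn1a pair without a spacer lies at chr17:29090928-29090947 on the plus strand, between genes, centred at position -42 from the first start site. The one without a mismatch lies at chr17:29090906-29090937, at position -58 from the same start site. Its second half-site is the first of the other pair. Another start site of Cdkn1a lies further downstream, within chr17:29093519-29093818. The Mdm2 pair lies at chr10:117711670-117711689 on the minus strand, at position -921, between genes. The pairs of Ccng1 lie at chr11:40755462-40755481, between genes at position -185, and at chr11:40754936-40754955, in an intron of Ccng1 at position 341, both on the minus strand. The Bax pair printed, with a spacer of 1 base, lies at chr7:45467090-45467110 on the minus strand, at position -202 and in an intron of the annotated gene Gm45808. The 3 pairs not printed have spacers of 6 to 11 bases and lie in introns, 1 of Cdkn1a and 2 of Bax.

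Pairs were found in 3 of the 12 promoter windows of these genes (250 bases before to 50 after a start site), against 1.09% of 32851 promoter windows in the table. Within 3 kb of a start site, pairs without a spacer were found at 3 of the 8 matched genes, against 2.03% of 27025 genes. With spacers allowed, pairs were found at 4 of 8 genes, against 28.8%. A match is a description of the sequence only. The promoters also differ in CpG content: they hold from 2 CpG at the first start site of Cdkn1a to 39 at one of the 3 start sites of Bbc3, while Trp53 has 10, Bax 19, Phlda3 26 and Mdm2 35, beside a median of 7 over all promoters.

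The knockout label was checked on Cxxc5 itself. Its level was 31.4 and 25.1 FPKM in wild type at day 0 against 6.87 and 8.64 in knockout, 30.9 and 36.1 against 5.05 and 7.08 at day 3, and 39.8 and 52.3 against 9.38 and 11.9 at day 6. Every knockout library was below every wild type library, with differences of -1.74 at day 0 (limma adjusted p = 0.0173), -2.30 at day 3 (adjusted p = 0.00412) and -2.01 at day 6 (adjusted p = 0.000426). Signal therefore remained in the knockout libraries. Estimated depth ran from 15.05 to 31.85 M reads per library, which gives a counting error of 5.6% to 8.15% for a gene at 5 FPKM in a transcript of 2 kb. Replicates correlated at 0.966 to 0.985 over genes. Genes whose FPKM + 1 differed over 1.5-fold between replicates numbered 149 to 216 in the groups of days 0 and 3. At day 6 they numbered 1070 in wild type and 613 in knockout. Each gene has 1 estimate of the spread shared by all 6 groups, so p-values at day 6 also rest on the libraries of days 0 and 3. Of 8 pluripotency markers none was listed at 0 in any library, and their summed level fell from 1837 to 2107 FPKM at day 0 to 251 to 680 FPKM at day 6. A Y-linked list of 4 genes summed to 14.9 to 31.0 FPKM in the wild type libraries and to 2.50 to 7.92 FPKM in the knockout libraries over all days, so the lines of the 2 genotypes also differ in this respect, and its part in the results was not tested.

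Trp53 mRNA had the highest mean FPKM of the 10 in all 6 groups, followed in each by that of Bax, which encodes the pore-forming death protein of mitochondria. Trp53 (chr11:69580348-69591873) stood at 199 and 193 FPKM in wild type and 199 and 205 in knockout at day 0. It stood at 144 and 175 against 168 and 173 at day 3, and at 152 and 134 against 130.2 and 129 at day 6. The highest group mean was knockout at day 0 (202 ± 4.04) and the lowest knockout at day 6 (129.5 ± 0.943), with wild type moving between 196 ± 4.39 and 143 ± 12.8, and no difference between genotypes passed on any day. In wild type it fell from day 0 to day 3 by 0.30 (SE 0.09, adjusted p = 0.0227), a call that is lost under quantile normalization (-0.13, adjusted p = 0.281) and without day 3 wild type replicate 1 (-0.16, adjusted p = 0.152) or either day 0 wild type library (adjusted p = 0.0886 and 0.0547). In knockout the fall from day 3 to day 6 passed (-0.39, SE 0.09, adjusted p = 0.00600) and that from day 0 to day 3 did not (-0.24, adjusted p = 0.0529). The former is lost under quantile normalization (-0.23, adjusted p = 0.0539), and the latter passes when only the groups compared are fitted (adjusted p = 0.00371) or with library quality weights (0.00533). The annotation also lists a pseudogene, Trp53-ps, which has no row of its own in the table. Reads shared between such copies cannot be told apart here.

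**Figure D1:**
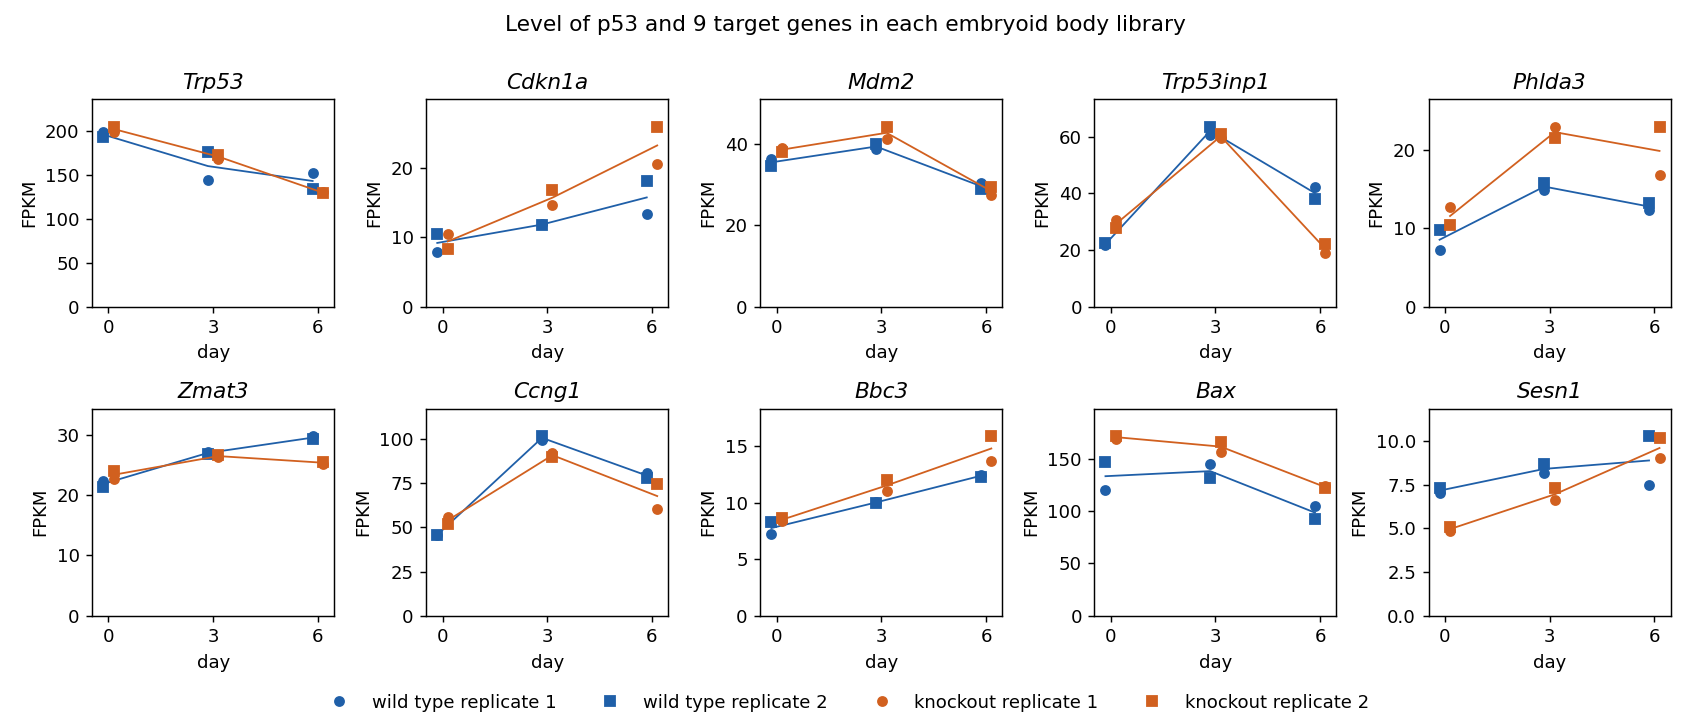
Level in FPKM (vertical axes, each starting at 0) of Trp53 and 9 target genes by day in the 12 embryoid body libraries. Symbols are single libraries (circles replicate 1, squares replicate 2), blue wild type and orange knockout, and lines join group means; Trp53inp1 and Ccng1 peak at day 3 in both genotypes, while Cdkn1a and Bbc3 are highest at day 6.

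The targets did not follow a single course. Trp53inp1, whose product relays p53 signals to cell death and autophagy, and Ccng1, an atypical cyclin that recruits a phosphatase to Mdm2, peaked at day 3. Trp53inp1 (chr4:11156441-11174379) had 21.7 and 22.4 FPKM in wild type and 30.7 and 27.6 in knockout at day 0, then 60.5 and 63.6 against 59.4 and 60.8 at day 3. At day 6 it had 42.2 and 37.9 FPKM in wild type against 18.8 and 21.98 in knockout. The genotypes therefore overlapped at day 3 only, with knockout above wild type before and below it after.

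In wild type, Trp53inp1 rose 2.82-fold from day 0 to day 3 (1.45 ± 0.09 SE, adjusted p = 4.67e-06) and fell to 0.646 of that level by day 6 (-0.62, SE 0.09, adjusted p = 0.00250). The knockout rose 2.06-fold (1.02, SE 0.09, adjusted p = 3.77e-05) and then fell to 0.339 (-1.52, SE 0.09, adjusted p = 2.44e-05). Ccng1 (chr11:40748552-40755309) went from 45.8 ± 0.0576 to 101 ± 1.65 and on to 79.4 ± 2.02 FPKM in wild type, and from 54.0 ± 2.97 to 90.8 ± 1.79 and on to 67.7 ± 9.96 in knockout. Both steps passed in both genotypes, with a rise of 1.12 in wild type (adjusted p = 1.84e-05) and 0.74 in knockout (adjusted p = 0.000213), and falls of 0.34 (adjusted p = 0.0194) and 0.43 (adjusted p = 0.00343). The fall of Ccng1 in wild type is lost under quantile normalization (-0.22, adjusted p = 0.0957) and without either day 3 wild type library (adjusted p = 0.0680 and 0.0922) or day 6 wild type replicate 2 (0.0991).

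Cdkn1a and Bbc3 were highest at day 6. Cdkn1a (chr17:29090979-29100722) encodes p21, the CDK inhibitor through which p53 halts the cell cycle. It was low at day 0, with 7.91 and 10.4 FPKM in wild type and 10.5 and 8.26 in knockout, and the genotypes overlapped. At day 3 it had 11.9 and 11.7 against 14.6 and 16.7 FPKM, and at day 6 13.3 and 18.1 against 20.5 and 25.9 FPKM. Knockout libraries lay above wild type libraries on both later days. The knockout steps passed, with 0.69 (SE 0.18, adjusted p = 0.0125) to day 3 and 0.53 (SE 0.18, adjusted p = 0.0342) to day 6, and the wild type steps of 0.34 (adjusted p = 0.142) and 0.37 (adjusted p = 0.146) did not, the latter passing without day 6 wild type replicate 1 (0.58, adjusted p = 0.0497). The knockout steps are lost without day 3 knockout replicate 2 (adjusted p = 0.0808 and 0.0670), the first also without day 0 knockout replicate 2 (0.0960), the second also without day 3 knockout replicate 1 (0.164) or day 6 knockout replicate 2 (0.206), or with no minimum level (0.0544). The difference between the genotypes' steps was not past the threshold for either step (0.35, adjusted p = 0.839, and 0.16, adjusted p = 0.729).

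Bbc3 (chr7:16308398-16318334) encodes PUMA, a BH3-only protein that frees Bax and Bak to open mitochondria. It rose in small steps in both genotypes, from 7.25 and 8.27 FPKM in wild type and 8.34 and 8.64 in knockout at day 0. It reached 10.1 and 9.9998 against 11.1 and 12.0 FPKM at day 3, and 12.5 and 12.3 against 13.7 and 15.9 at day 6. The knockout libraries were above the wild type libraries on each day. Its 4 steps all passed, between 0.28 (SE 0.08, wild type to day 6, adjusted p = 0.0330) and 0.40 (SE 0.08, knockout to day 3, adjusted p = 0.00424). The wild type step to day 6 is lost when any 1 of its 4 libraries is left out (adjusted p of 0.0821 to 0.121). The step to day 3 in wild type is lost without day 0 wild type replicate 1 (0.0617), and the step to day 6 in knockout without day 3 knockout replicate 1 (0.0698) or day 6 knockout replicate 2 (0.0659).

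Mdm2 and Bax fell at the last step. Mdm2 (chr10:117688875-117710758) had 36.5 and 34.7 FPKM in wild type and 39.2 and 38.2 in knockout at day 0, and 38.96 and 39.96 against 41.3 and 44.4 at day 3. It then went down to 30.5 and 28.9 against 27.5 and 29.4 FPKM at day 6, where the genotypes overlapped. From day 3 to day 6 it fell by 0.40 in wild type (SE 0.06, adjusted p = 0.00322) and by 0.57 in knockout (SE 0.06, adjusted p = 0.000170). Its small differences between day 0 and day 3 (0.15 and 0.14, adjusted p = 0.0666 and 0.0753) pass under quantile normalization (0.28 and 0.29, adjusted p = 0.0041 and 0.0040) and without the day 6 libraries (0.0439 and 0.04997), and that in knockout also with library quality weights (0.0113). Bax (chr7:45461695-45466903) fell from 138 ± 9.57 to 98.5 ± 9.06 FPKM in wild type (-0.48, SE 0.10, adjusted p = 0.00852) and from 161 ± 6.81 to 123 ± 1.12 in knockout (-0.39, SE 0.10, adjusted p = 0.00944). The wild type fall of Bax is just lost without day 3 wild type replicate 1 (adjusted p = 0.0559) or day 6 wild type replicate 2 (0.0586), and the knockout fall under quantile normalization (0.0637) or without day 3 knockout replicate 2 (0.0621).

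Phlda3, a repressor of Akt signalling, and Zmat3, an RNA-binding zinc finger protein, rose by day 3, and neither passed from day 3 to day 6. Phlda3 (chr1:135766085-135769134) went from 8.55 ± 1.79 to 15.4 ± 0.594 FPKM in wild type (0.79, SE 0.16, adjusted p = 0.00344) and from 11.6 ± 1.69 to 22.3 ± 1.02 in knockout (0.90, SE 0.16, adjusted p = 0.00195). Zmat3 (chr3:32334792-32365665) went from 21.9 ± 0.629 to 27.0 ± 0.232 in wild type (0.29, SE 0.05, adjusted p = 0.00114) and from 23.4 ± 0.908 to 26.5 ± 0.177 in knockout (0.17, SE 0.05, adjusted p = 0.0174). In wild type Phlda3 then went from 14.9 and 15.8 FPKM to 12.3 and 13.3 (-0.25, adjusted p = 0.266) and Zmat3 from 27.2 and 26.8 to 29.8 and 29.2 (0.13, adjusted p = 0.0798), both without overlap, and Zmat3 passes there under quantile normalization (0.19, adjusted p = 0.0141). The knockout step of Zmat3 to day 3 is lost without either day 3 knockout library or day 0 knockout replicate 1 (adjusted p of 0.0662 to 0.112). Zmat3 overlaps the annotated gene 4930429B21Rik, and the use of strand is not given, so reads of the overlap cannot be assigned. Sesn1 (chr10:41810574-41908436), a sestrin that restrains mTORC1 and oxidative damage, was the lowest of the 10 by length-corrected level, between 4.95 ± 0.167 FPKM in knockout at day 0 and 9.59 ± 0.804 in knockout at day 6. It rose in knockout in both steps (0.41, adjusted p = 0.0219, and 0.41, adjusted p = 0.0197), and the wild type steps did not pass (0.20, adjusted p = 0.196, and 0.06, adjusted p = 0.745), the first of them passing without the day 6 libraries (adjusted p = 0.0377). The first knockout call is lost without any 1 of its 4 libraries (adjusted p of 0.0516 to 0.123) or under quantile normalization (0.0588) and the second without day 3 knockout replicate 1 (0.113) or day 6 knockout replicate 2 (0.117), and the difference between the genotypes' steps did not pass (0.21, adjusted p = 0.872, and 0.36, adjusted p = 0.243).

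Counted over the 10 genes, 5 rose and 1 fell from day 0 to day 3 in wild type, where 55.7% of all genes tested were called, 25.5% higher and 30.2% lower. In knockout 7 rose and none fell, Trp53 having an unadjusted p of 0.0282 for a lower level, beside 52.6% called (24.6% higher, 28% lower). From day 3 to day 6 the counts were 1 higher and 4 lower in wild type, with 35.9% of genes called (17.4% higher, 18.4% lower), and 3 higher and 5 lower in knockout, with 59.1% called (29.2% higher, 29.9% lower). The median difference of the 10 was 0.31 and 0.41 for the first step in wild type and knockout and -0.20 and -0.28 for the second, while the median of all genes tested was -0.02 in both genotypes for the first step and -0.01 in wild type for the second. Calls in either direction were common among all genes, so their number alone does not set the 10 apart. In the first step more of the 10 were called higher than lower in both genotypes, unlike all genes tested. The 10 were chosen with earlier results of these data known, and this difference in direction was not tested. Steps that share the day 3 libraries are not independent of each other. Because an embryoid body mixes cell types, fewer cells of a type and less RNA per cell cannot be told apart in any of these values.

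**Figure D2:**
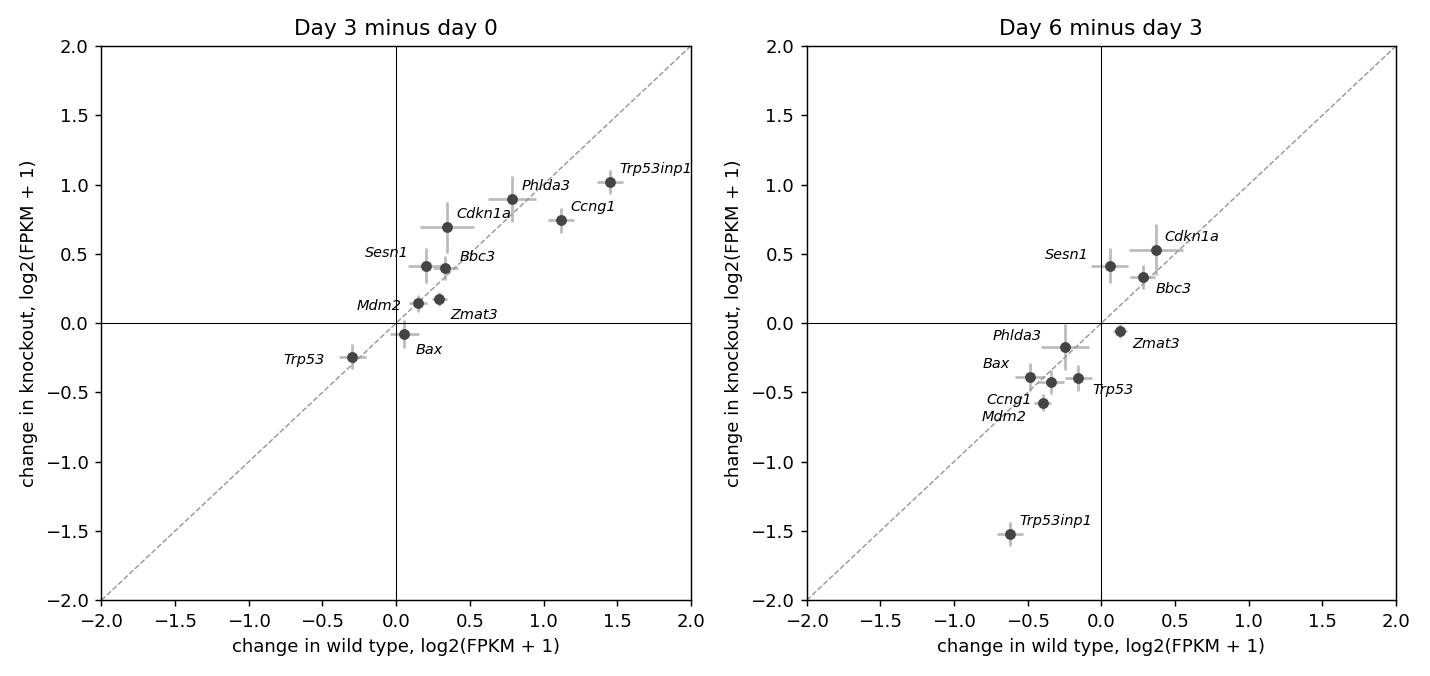
Difference in log2(FPKM + 1) between days in wild type (horizontal axis) and in knockout (vertical axis) for the 10 genes, with SE bars from limma and a dashed line of equal change. Day 3 minus day 0 is on the left and day 6 minus day 3 on the right, where Trp53inp1 lies below the line at -0.62 in wild type and -1.52 in knockout.

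Across the 12 libraries the targets fell into looser and tighter pairs, given here as a description because the libraries share days, genotypes and lines. Cdkn1a and Bbc3 had a Pearson correlation of 0.95, and Trp53inp1 and Ccng1 one of 0.85. Trp53 mRNA ran opposite to Bbc3 (-0.88), Cdkn1a (-0.86) and Sesn1 (-0.83) and stood at -0.01 with Trp53inp1. With Mdm2 (0.68) and Bax (0.62) its correlation was positive, and with Zmat3 (-0.65), Phlda3 (-0.55) and Ccng1 (-0.49) negative. By the highest Pearson correlation over the same 12 libraries, the genes most like Trp53 were Tomm34 (0.979), Ifitm3 (0.975) and Kirrel2 (0.974). Those most like Cdkn1a were Mpnd (0.978), Srd5a3 (0.977) and Snx21 (0.977), and those most like Mdm2 were Nckap1l (0.978), Nrsn1 (0.967) and Plekhm1 (0.963).

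Between genotypes at day 0 none of the 10 genes passed by limma, beside 0.369% of genes called, while 5 had an unadjusted p under 0.05. The share of all genes tested under that unadjusted p was not counted. Counts at an unadjusted p, here and for the lists below, are therefore a description and no result about the genes listed. The libraries of 9 of the 10 did not overlap between genotypes, beside 49.8% of all genes tested. Of these, 8 had both knockout libraries above both wild type libraries, beside 24.3% of all genes tested, and Sesn1 had both below. Cdkn1a overlapped. Bax had 120.0 and 146 FPKM in wild type against 169 and 172 in knockout (0.36, SE 0.10, adjusted p = 0.157). Trp53inp1 differed by 0.39 (SE 0.09, adjusted p = 0.0996), Phlda3 by 0.40 (SE 0.16, adjusted p = 0.304) and Ccng1 by 0.23 (SE 0.09, adjusted p = 0.275). Sesn1 had 6.995 and 7.31 FPKM in wild type against 4.84 and 5.07 in knockout (-0.45, SE 0.13, adjusted p = 0.157). When the more variable day 6 libraries were left out of the fit, Trp53inp1 (adjusted p = 0.0367) and Sesn1 (adjusted p = 0.0350) passed. Trp53 itself differed by 0.05 (SE 0.09, adjusted p = 0.884). A list of 10 feeder fibroblast markers, for the cells on which ESCs are often grown, summed to 26.1 FPKM in day 0 knockout replicate 1 and to 10.5 to 14.3 FPKM in the other day 0 libraries, and its part in these differences was not tested.

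At day 3 none of the 10 passed, beside 1.19% of genes called, and 1 of them, Phlda3, had an unadjusted p under 0.05. Phlda3 had 14.9 and 15.8 FPKM in wild type against 23.0 and 21.6 in knockout (0.51, SE 0.16, adjusted p = 0.191), and it passed with library quality weights (adjusted p = 0.0290). Cdkn1a differed by 0.38 (SE 0.18, adjusted p = 0.382) and Bax by 0.23 (SE 0.10, adjusted p = 0.344). Sesn1 was still lower in knockout in both libraries, with 8.13 and 8.65 against 6.60 and 7.29 FPKM (-0.24, SE 0.13, adjusted p = 0.400). Trp53 and Trp53inp1 overlapped between genotypes. On this day 8 of the 10 genes did not overlap, 5 higher and 3 lower in knockout, beside 60.3% of all genes tested.

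At day 6, Phlda3 and Bax were called higher in knockout, and Trp53inp1 and Zmat3 were called lower. These 4 of the 10 stand beside 34.1% of all genes tested, 17.9% higher and 16.2% lower. All genes tested also had most calls on this day, beside 0.369% at day 0 and 1.19% at day 3. The number of calls at day 6 and their spread over both directions therefore do not set the 10 apart. Trp53inp1 was at 0.509 of the wild type level (-0.94, SE 0.09, adjusted p = 0.000319). Phlda3 had 12.3 and 13.3 FPKM in wild type against 16.9 and 23.0 in knockout, 1.56-fold (0.59, SE 0.16, adjusted p = 0.0257). Bax had 105 and 92.1 FPKM against 124 and 122, 1.25-fold (0.32, SE 0.10, adjusted p = 0.0391). Zmat3 had 29.8 and 29.2 FPKM against 25.2 and 25.6, a ratio of 0.859 (-0.21, SE 0.05, adjusted p = 0.0134). Of the 4 differences that of Trp53inp1 was the largest. The libraries of all 4 were separated by genotype. The share of all genes tested that separate at day 6 is not given here, so separation on this day is a description only.

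The remaining targets did not pass at day 6. Cdkn1a was just short of the threshold, 1.48-fold higher in knockout (0.54, SE 0.18, adjusted p = 0.0506). Bbc3 differed by 0.24 (SE 0.08, adjusted p = 0.0610) and Ccng1 by -0.23 (SE 0.09, adjusted p = 0.0719), both without overlap. Trp53 differed by -0.14 (SE 0.09, adjusted p = 0.267), while Mdm2 (-0.06, adjusted p = 0.468) and Sesn1 (0.11, adjusted p = 0.507) overlapped. The median over the 10 genes was 0.03, beside 0.02 for all genes tested. Of the 4 calls, that of Trp53inp1 held in 10 of 11 alternative fits and was lost when only the day 6 libraries were fitted (adjusted p = 0.0819). Phlda3 is lost without day 6 wild type replicate 1 (0.112) or knockout replicate 2 (0.169), Zmat3 without wild type replicate 1 (0.0536), and Bax without wild type replicate 2 (0.157) or either knockout replicate (0.106 and 0.129). Those 3 calls are also lost with library quality weights (0.0833 to 0.118), and that of Bax with no minimum level (0.0582) or with the replicate block (0.0533). Cdkn1a passes in 5 of 11 alternative fits: without wild type replicate 2 (0.0215) or knockout replicate 1 (0.0443), with a minimum of 5 FPKM (0.0434), under quantile normalization (0.0478) and with the replicate block (0.0412). Bbc3 passes without knockout replicate 1 (0.0242) or with the replicate block (0.0424), Ccng1 without knockout replicate 2 (0.0105) and Sesn1 without wild type replicate 2 (0.32, adjusted p = 0.0317).

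**Figure D3:**
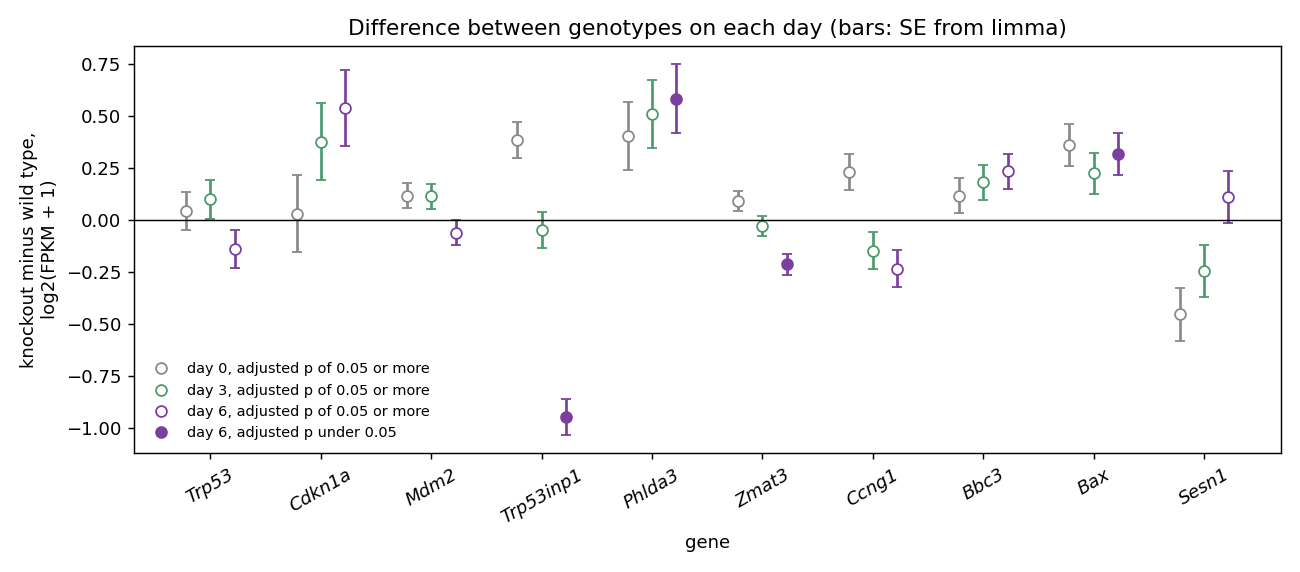
Knockout minus wild type in log2(FPKM + 1) for each of the 10 genes at day 0 (grey), day 3 (green) and day 6 (purple), with SE bars from limma; filled symbols have an adjusted p under 0.05. All filled symbols belong to day 6: Trp53inp1 at -0.94, Zmat3 at -0.21, Bax at 0.32 and Phlda3 at 0.59.

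Markers of several cell types also differed with genotype at day 6, beside 34.1% of all genes tested called (17.9% higher, 16.2% lower). A list of 9 mesoderm markers summed to 90.7 and 374 FPKM in wild type and to 614 and 644 in knockout at day 6, with 6 of 9 called higher. A list of 8 neural markers summed to 111 and 72.2 FPKM in wild type against 59.5 and 33.8 in knockout, with 6 of 8 called lower. Pluripotency markers summed to 680 and 477 against 526 and 251 FPKM, with Sox2 as the only 1 of 8 called, lower in knockout. Endoderm markers summed to 72.7 and 124 against 127 and 184 FPKM (3 of 6 tested called higher), blood and endothelium markers to 11.9 and 23.4 against 29.5 and 54.4 FPKM (2 of 5 tested called higher), and feeder fibroblast markers to 10.7 and 16.3 against 18.7 and 33.0 FPKM (2 of 6 tested called higher). The feeder fibroblast list did not move as one, with 4 of its 6 tested genes above 0 and Fbn1 and Twist2 called. In it Thy1 had 3.55 and 2.69 FPKM in wild type against 2.82 and 1.61 in knockout. Dcn, which was not tested, had 1.43 and 0.372 against 0.327 and 0.121 FPKM. The sum of that list therefore does not show feeder cells. No mesoderm or neural marker was listed at 0 in any day 6 library. The part of these cell types in the day 6 differences of p53 targets was not tested.

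Whether the genotype difference itself changed between days was tested as an interaction. From day 0 to day 3 none of the 10 genes passed, beside 0.0401% of all genes tested, with an unadjusted p under 0.05 for Trp53inp1 (-0.43, SE 0.12, adjusted p = 0.450) and Ccng1 (-0.38, SE 0.13, adjusted p = 0.527). From day 3 to day 6 Trp53inp1 passed (-0.90, SE 0.12, adjusted p = 0.0103), 1 of 10 beside 4.51% of all genes tested. The other 9 did not, Zmat3 (-0.18, SE 0.07, adjusted p = 0.153) having the smallest adjusted p among them. The call of Trp53inp1 is lost without day 3 wild type replicate 1 (0.0571) or either day 3 knockout library (0.0538 and 0.0606), with values of -0.86 to -0.92, and Sesn1 passes without day 6 wild type replicate 2 (0.56, adjusted p = 0.0236). So, of the 10 in the fit of all 12 libraries, only for Trp53inp1 did the knockout difference at day 6 separate from that at day 3 by its own test.

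Of 17 genes tested whose products bind, modify or degrade p53, 7 were called lower and 1 higher in knockout at day 6 and 9 did not pass, beside 16.2% lower and 17.9% higher among all genes tested. The median of the 17 was -0.17, beside 0.02 for all genes tested, and 5 of them had a value above 0. The 4 with the smallest adjusted p were the damage-signalling kinases Atr (13.5 ± 0.669 to 8.74 ± 0.240 FPKM, -0.57, adjusted p = 0.000596), Chek1 (19.97 ± 1.19 to 12.2 ± 1.30, -0.67, adjusted p = 0.00154) and Atm (13.5 ± 0.0501 to 10.4 ± 0.353, -0.34, adjusted p = 0.00439), and Sirt1, a deacetylase of p53 (23.5 ± 2.98 to 14.7 ± 0.539, -0.64, adjusted p = 0.00233). Hipk2, a kinase that phosphorylates p53 and named here as the sole gene of the list called higher, went from 12.0 ± 0.793 to 16.7 ± 1.53 (0.45, adjusted p = 0.00466). Mdm4, the partner of Mdm2, was also lower (-0.36, adjusted p = 0.00713), and its genotype difference changed from day 3 to day 6 (-0.51, SE 0.10, adjusted p = 0.0320), as did those of Chek1 (-0.58, SE 0.13, adjusted p = 0.0434) and Sirt1 (-0.62, SE 0.14, adjusted p = 0.0431). These 3 of the 17 stand beside 4.51% of all genes tested. Calls in this list and the other wider lists were not followed in the alternative fits. At days 0 and 3 limma called none of the 17, while 3 and 5 had an unadjusted p under 0.05. Cdkn2a, whose Arf product blocks Mdm2 and which is also in the list of CDK inhibitors, had 3.03 ± 1.08 FPKM in the wild type libraries of day 0 and 6.69 ± 0.262 in the knockout libraries (0.96, SE 0.19, adjusted p = 0.0730).

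Other known p53 targets were called in both directions at day 6, as were all genes tested (17.9% higher, 16.2% lower): 2 of 7 growth arrest genes, 4 of 10 cell death genes, 3 of 6 repair genes and 0 of 9 metabolism genes passed. Among the 7 growth arrest genes, Sfn, which encodes 14-3-3 sigma, was higher in knockout at day 3 (17.6 ± 2.50 to 38.6 ± 3.17 FPKM, 1.09, SE 0.14, adjusted p = 0.0122) and at day 6 (0.62, SE 0.14, adjusted p = 0.0129), as was Plk2, a polo-like kinase, at day 6 (0.66, SE 0.17, adjusted p = 0.0172). Among the 10 cell death genes, Perp, a membrane protein of desmosomes, was higher at day 3 (0.60, SE 0.07, adjusted p = 0.00862) and day 6 (0.34, SE 0.07, adjusted p = 0.00802). Pidd1 (0.43, adjusted p = 0.00701) and the death receptor Tnfrsf10b (0.31, adjusted p = 0.0422) were higher at day 6, while Eda2r, a receptor of the TNF family, was lower (12.8 ± 1.27 to 6.52 ± 0.265 FPKM, -0.88, SE 0.08, adjusted p = 0.000275). The difference for Eda2r changed from day 3 to day 6 (-0.84, SE 0.11, adjusted p = 0.00842), 1 of these 10 cell death genes beside 4.51% of all genes tested. Of 6 repair and nucleotide supply genes, the damage sensors Xpc (0.31, adjusted p = 0.0120) and Ddb2 (0.34, adjusted p = 0.0243) were higher at day 6 and Rrm2b, a ribonucleotide reductase subunit, was lower (-0.42, adjusted p = 0.0235). Of 9 metabolism genes, Ak1, an adenylate kinase, was higher at day 3 (10.99 ± 1.16 to 19.2 ± 1.82 FPKM, 0.75, SE 0.13, adjusted p = 0.0413), and at day 6 limma called none, also at an unadjusted p under 0.05 (0 of 9). The largest day 6 difference of that list was that of Pltp, a lipid transfer protein (0.29, SE 0.14, adjusted p = 0.149). At day 0 limma called none in these 4 lists of targets, while 3 growth arrest, 2 cell death, 1 repair and 3 metabolism genes had an unadjusted p under 0.05. Genes under the minimum level were not tested: Fas reached at most 0.312 FPKM, Dram1 0.452 and the p53 paralogue Trp63 0.0736, while the paralogue Trp73 ran from 0.144 to 1.70 FPKM.

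**Figure D4:**
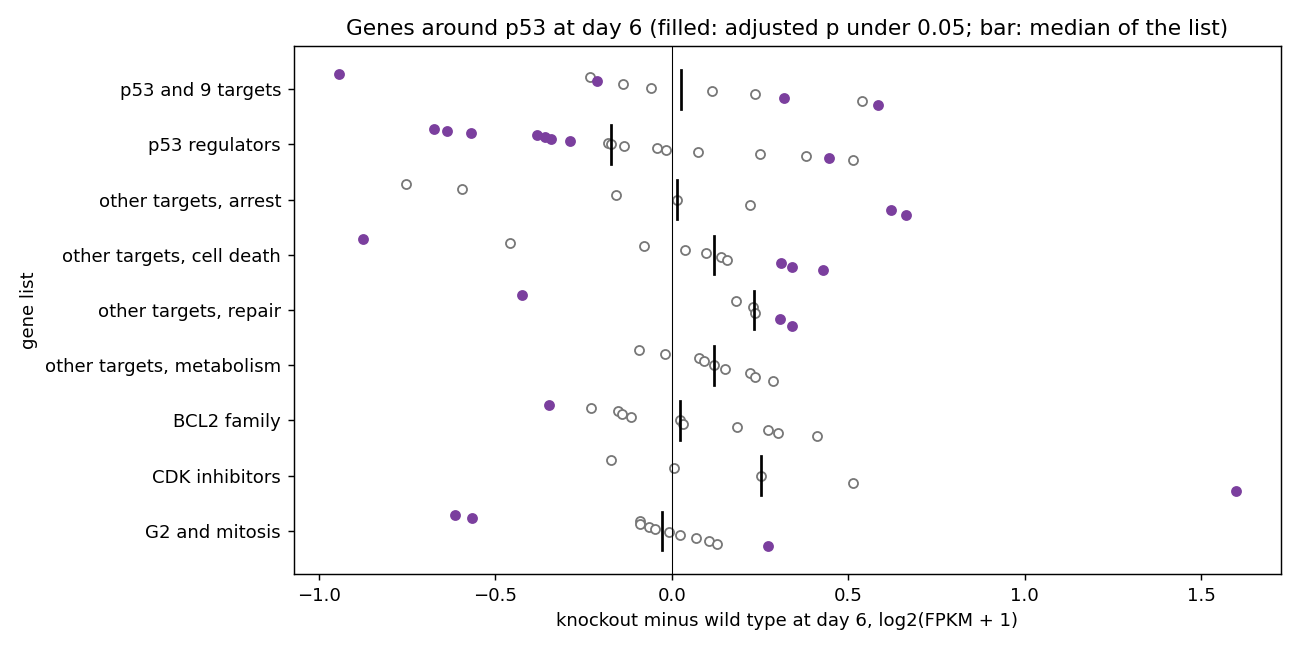
Knockout minus wild type at day 6 in log2(FPKM + 1) (horizontal axis) for each tested gene of 9 lists (rows), filled where the adjusted p is under 0.05, with a bar at the median of each list. The regulators of p53 have a median of -0.17 with 7 lower and 1 higher, the list of p53 and 9 targets has 2 filled on each side, and the point at 1.60 among the CDK inhibitors is Cdkn1c.

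The gene families around the members are given beside 34.1% of all genes tested called at day 6. Of 11 genes of the BCL2 family tested besides Bax and Bbc3, the BH3-only gene Bcl2l11 was lower in knockout at day 6 (17.9 ± 3.04 to 13.7 ± 0.183 FPKM, -0.35, adjusted p = 0.0313) and limma called none at days 0 and 3, where 2 and 1 had an unadjusted p under 0.05. Of 5 CDK inhibitor genes besides Cdkn1a, Cdkn1c, which encodes p57, was higher at day 6 (20.3 ± 4.31 to 63.3 ± 12.7 FPKM, 1.60, SE 0.17, adjusted p = 0.000541). Its difference changed from day 3 to day 6 (1.10, SE 0.24, adjusted p = 0.0421), 1 of these 5 genes beside 4.51% of all genes tested. Of 12 genes of G2 and mitosis, which p21 is known to lower through the DREAM complex, limma called none at days 0 and 3, also at an unadjusted p under 0.05. At day 6 Ccnb1 (-0.61, adjusted p = 0.00142) and Bub1 (-0.57, adjusted p = 0.00374) were lower and Foxm1 was higher (0.27, adjusted p = 0.0144), with a median over the 12 of -0.03. From day 0 to day 3, 11 of the 12 fell in each genotype, beside 30.2% of all genes tested in wild type and 28% in knockout, and Foxm1, a transcription factor of the same programme named here as the exception, rose in each (0.26 in wild type and 0.30 in knockout). Ccnb2, a mitotic cyclin, fell by 0.81 in wild type and 0.67 in knockout over that step.

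While the cells differentiated, other p53 targets were again called in both directions. From day 0 to day 3 in wild type, 3 of 7 growth arrest genes rose and 4 fell, 6 of 10 cell death genes rose and 3 fell, 1 of 6 repair genes rose and 4 fell, and 1 of 9 metabolism genes rose and 6 fell. Btg2, an antiproliferative cofactor, rose from 5.56 ± 1.00 to 17.4 ± 2.19 FPKM (1.49, SE 0.13, adjusted p = 3.73e-05), whereas Sfn fell from 55.9 ± 1.13 to 17.6 ± 2.50 (-1.62, SE 0.14, adjusted p = 3.49e-05). Pmaip1, which encodes the BH3-only protein Noxa, rose from 27.3 ± 5.22 to 62.2 ± 3.98 FPKM in wild type (1.17, adjusted p = 0.000814) and from 16.5 ± 0.462 to 57.995 ± 2.62 in knockout (1.75, adjusted p = 0.000116). Gdf15, a stress cytokine, fell from 4.04 ± 0.158 to 0.463 ± 0.127 FPKM in wild type (-1.79, adjusted p = 1.93e-05). In knockout the counts for the same step were 3 higher and 2 lower of 7 growth arrest genes, 5 and 2 of 10 cell death genes, 2 and 3 of 6 repair genes, and 3 and 5 of 9 metabolism genes. These shares stand beside 25.5% higher and 30.2% lower among all genes tested in wild type, and 24.6% and 28% in knockout.

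The sestrins, which share Sesn1's family, parted over the first step. Sesn3 rose from 5.196 ± 0.0237 to 23.9 ± 2.32 FPKM in wild type (2.00, SE 0.13, adjusted p = 7.07e-06) and from 7.08 ± 0.424 to 20.97 ± 0.519 in knockout (1.44, SE 0.13, adjusted p = 4.95e-05). Sesn2 fell from 31.5 ± 1.03 to 22.7 ± 0.349 FPKM in wild type (-0.45, adjusted p = 0.00223) and from 32.5 ± 0.941 to 23.7 ± 0.630 in knockout (-0.44, adjusted p = 0.00302). From day 3 to day 6 Ddit4, another restraint on mTORC1, rose from 20.96 ± 1.36 to 100.2 ± 40.5 FPKM in wild type (2.15, SE 0.23, adjusted p = 0.00132) and from 22.8 ± 0.758 to 104 ± 4.68 in knockout (2.15, SE 0.23, adjusted p = 0.000173). The wild type libraries of Ddit4 at day 6 stood far apart, at 71.6 and 128.9 FPKM, and still above all day 3 libraries. Neither Sesn2 nor Sesn3 passed between genotypes on any day, with 1 of the 2 at an unadjusted p under 0.05 at day 0 by limma.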

How the data were processed

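Only the embryoid body table was analysed. Its FPKM values were made by the authors. Single-end reads of total RNA were adapter-trimmed (Trim Galore 0.4.1) and aligned to mm10 (TopHat2 2.0.13), per the series' design text. The submitters' processing notes add Cufflinks 2.2.1, HTSeq 0.6.1 and Cuffdiff without their roles. The sources used here do not give the annotation or the strand setting. The deposited FPKM table has 24550 rows, 92 of them spike-ins listed at 0. Depth was estimated from the steps between low FPKM values. The stem cell table holds 3 entries per condition for 2 labelled libraries per genotype, so its 6 entries could not be matched and were not used.

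log2(FPKM + 1) was fitted with limma 3.58.1 in R 4.3.3 for genes with a mean of at least 1 FPKM, with 1 mean per group over all 12 libraries, a variance trend and two-sided tests. The script was tested on simulated data. At most 3 values above 0 were identical between 2 libraries. Positions come from RefSeq (GRCm38.p6). The alternatives were a pseudocount of 0.1, no minimum or a minimum of 5 FPKM, quantile normalization, 2 replicate blocks, fewer libraries, library weights and leaving out each library.

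The 10 genes and all lists were chosen with earlier results of these data known. In wider lists, at most the 4 called genes with the smallest adjusted p are named, or otherwise 1 or 2 with the largest change. Mdm4, Hipk2 and, between days 0 and 3, Foxm1 were added after their values were seen.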

Additional observations from a re-analysis of the deposited data

Results flagged for a closer look

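Trp53inp1 was the one gene among the 10 whose genotype difference changed between days by its own test. The knockout minus wild type difference was -0.04 at day 3 and -0.94 at day 6, a change of -0.90 in log2(FPKM + 1) (SE 0.12, limma adjusted p = 0.0103). Both day 6 knockout libraries (18.8 and 21.98 FPKM) were below both day 6 wild type libraries (42.2 and 37.9 FPKM), while the genotypes overlapped at day 3. The value kept its sign in all 16 alternative fits (-1.01 to -0.79) and its call in 13. It was lost without day 3 wild type replicate 1 (adjusted p = 0.0571), day 3 knockout replicate 1 (0.0538) or day 3 knockout replicate 2 (0.0606).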

How the results depend on the processing

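When only the libraries compared were fitted, the 4 of 10 genes called between genotypes at day 6 became 0 (of all genes, 20 were called in place of 4249) and the 5 called from day 3 to day 6 in wild type became 0. Such a fit has fewer samples and takes the spread from those libraries alone. In the main fit, p-values at day 6 also rest on days 0 and 3, where replicates differed less. Fitted alone, the knockout libraries of days 0 and 3 kept the calls of the 10 genes, and Trp53 passed as well (adjusted p = 0.00371). The cause of the lost calls was not tested. Without the day 6 libraries 2 genes passed between genotypes at day 0 in place of 0. With library quality weights 1 passed between genotypes at day 3 in place of 0, and 1 at day 6 in place of 4, and the cause was not tested. Apart from the 20 and 4249 above, the number of all genes called is not given beside the counts of alternative fits. These counts, here and below, therefore do not tell a change in the 10 from a change over all genes. Leaving out 1 library at a time gave 2 to 5 genes between genotypes at day 6, 2 to 5 for day 6 against day 3 in wild type, 4 to 5 for day 3 against day 0 in knockout, 5 to 8 for day 6 against day 3 in knockout, and 0 to 2 for the genotype difference at day 6 against day 3. Without day 6 wild type replicate 2 the second gene of that count was Sesn1 (adjusted p = 0.0236).

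Over all genes tested, the replicate numbers were not shown to pair the libraries: deviations of same-numbered libraries correlated at 0.0274, 0.0834 and 0.243 between genotypes at days 0, 3 and 6, and at -0.0807 to 0.0755 between days. The Y-linked sum, however, kept its order by replicate number on each day. In wild type, replicate 2 was above replicate 1 (22.7 and 18.0, 22.9 and 14.9, 31.0 and 18.9 FPKM). In knockout, replicate 1 was above replicate 2 (7.92 and 5.02, 5.52 and 3.54, 4.33 and 2.50 FPKM). The labels do not say whether a number names the same line on all days, and the main fit does not pair the days. With the replicate block, 5 of the 10 genes were called between genotypes at day 6 in place of 4: Cdkn1a (adjusted p = 0.0412) and Bbc3 (0.0424) passed and Bax (0.0533) did not. The block within genotype lost 1 call, that of Trp53 from day 0 to day 3 in wild type (adjusted p = 0.0514). Neither block changed another call of the 10 genes.

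For single genes, 1066 of 1180 alternative values kept their direction and their side of the threshold, 63 lost a call, 24 gained one and 27 changed sign, none of them past the threshold. Under quantile normalization these were Sesn1 in wild type from day 3 to day 6 (-0.015), Bax in knockout from day 0 to day 3 (0.15) and the day 3 genotype difference of Mdm2 against day 0 (0.0096). Leaving out 1 library gave between genotypes -0.15 to 0.21 for Cdkn1a at day 0, -0.039 to 0.24 for Trp53 at day 3 and -0.094 to 0.32 for Sesn1 at day 6. Between days it gave -0.086 to 0.20 for Bax (wild type, day 3 against day 0), -0.15 to 0.27 for Sesn1 (wild type, day 6 against day 3) and -0.38 to 0.039 for Phlda3 (knockout, day 6 against day 3). For the genotype difference at day 3 against day 0 it gave -0.28 to 0.0071 for Bax, -0.055 to 0.047 for Mdm2, -0.084 to 0.30 for Phlda3, -0.0198 to 0.15 for Bbc3 and -0.084 to 0.19 for Trp53. At day 6 against day 3 it gave -0.0499 to 0.16 for Bbc3, -0.049 to 0.37 for Cdkn1a, -0.00013 to 0.19 for Bax, -0.23 to 0.062 for Ccng1 and -0.14 to 0.28 for Phlda3.

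The stem cell comparison and its alternatives were not run, because the 6 entries of that table could not be matched to samples. Without the day 6 libraries, comparisons that use day 6 have no value. No scaling moved the median of all genes by over 0.1. Depth limits the low genes most: at 5 FPKM and 2 kb, counting alone gives an error of 5.6% to 8.15% by the rough estimate of depth.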
